A study of Mus musculus with 4 samples.

Results

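Collagen genes were described across the cells of the mouse pituitary. Members were chosen by name alone: every feature whose symbol reads Col, a number, a and a number, which gave 44 of the 31053 features in each library. Their counts were read in 4 single-cell RNA libraries of pituitary, 1 library for each combination of genotype and age: wild-type (WT) mice and mice that overexpress p25 (p25OE), at 14 and at 40 weeks. The labels give all 4 libraries the strain C57BL/6- B6;CBA-BiTg and name the WT animals as littermates that served as controls. The gene Cdk5r1 codes for p35, a protein that switches on the kinase Cdk5, and p25 is a cut-down form of it. The labels do not name the promoter or cell type that drives the transgene, nor the number of animals in a library. Values in a series below are always in the order WT and p25OE at 14 weeks, then WT and p25OE at 40 weeks. With 1 library in each group there is no replicate error, so no difference was tested, and the intervals given are exact 95% intervals that cover counting error only.

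Collagens are matrix proteins whose chains wind around one another into a stiff helix. Fibrillar collagens, of which type I is the main one of connective tissue, form the cable-like fibrils that fibroblasts lay down. Type IV collagen forms the sheet of basement membranes under epithelial and endothelial cells, type VI forms beaded filaments near cells, and FACIT collagens (fibril-associated collagens with interrupted helices) sit on the surface of fibrils. Other members span the plasma membrane or, as the multiplexins, tie basement membranes to the matrix beside them. Type I is usually a mixed molecule of chains from Col1a1 and Col1a2, and types IV, VI, IX and XI also join chains from different genes. In the anterior lobe, hormone cells lie in cords beside a dense capillary bed, and basement membranes part the cords from the vessels.

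Some members share a start region, so the letters at the start of the genes that the results turn on are given first, from RefSeq on build GRCm38.p6, the build that mm10 is made of. Col4a1 and Col4a2, the chains of the common basement membrane collagen, lie head to head on chromosome 8. Their transcripts run apart on opposite strands and share the 22 bases from 11312805 to 11312826. The stretch is shown as chr8:11312801-11312830 on each gene's own strand, with the shared bases in capitals.
Col4a1: ccccTTGGAGACGCCGCCCGCGCACTgccg
Col4a2: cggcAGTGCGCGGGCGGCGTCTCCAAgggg
Col4a4 and Col4a3, chains of the collagen of the kidney filter, are arranged in the same way on chromosome 1, with 71 bases between their annotated first bases. The bases between them are shown as chr1:82586850-82586920 on the minus strand, the strand of Col4a4.
Between Col4a4 and Col4a3: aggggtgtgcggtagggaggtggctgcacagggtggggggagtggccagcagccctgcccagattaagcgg
The gene with the highest count, Col1a2, and the gene with the largest p25OE to WT ratio in melanotrophs at 14 weeks, Col9a2, are shown by a stretch of 30 bases that lies upstream of the RefSeq start. The first marked base lies 109 bases before the start in Col1a2 and 26 bases before it in Col9a2. Capitals mark CCAAT in Col1a2 (chr6:4505497-4505526) and GGGCGG, in both orientations, in Col9a2 (chr4:121039534-121039563), both on the plus strand.
Col1a2: aaaagaatggaaCCAATttaagaagccccg
Col9a2: gaagatCCGCCCctgaccGGGCGGagctgg
Start windows, from 250 bases before to 50 bases after each RefSeq start, were found for 35 of the 44 members, as 38 windows. CCAAT on either strand was in 13 of these 38 windows (34.2%) and in 37.4% of all 32851 windows of that length. GGGCGG on either strand was in 23 of them (60.5%) and in 35.7% of all windows, and TATAAA in 5 (13.2%) and in 13.6%. These matches are letters in a window and say nothing of binding.

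The libraries held 6579, 7667, 7927 and 7726 kept cells, which are barcodes with at least 500 detected genes and at most 20% mitochondrial UMIs. A UMI is a molecular tag that marks 1 captured RNA molecule. Kept cells carried 91937204, 70424565, 49855919 and 60359802 UMIs, with medians of 10778, 6340, 4940 and 6626 per cell. Values are CPM, the usual scaling of UMIs of a gene to the total of its class or library. Since tags are counted at the 3' end of a molecule and not along its length, CPM of different genes were set beside each other without a length term. Cdk5r1, the gene of p35, was at 10.8, 14.4, 10.4 and 17.5 CPM, but a 3' tag need not lie in a transgene that holds part of the gene, so this does not check the labels. Libraries of 1 age shared 13 kept barcodes at 14 weeks and 85 at 40 weeks, of which 1 and 7 had the same class in both. The labels speak of more than 1 run and do not say which libraries shared one.

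Cells were put in classes by a gate on marker genes, with no collagen gene among the markers, and a class name stands for the cells in that gate, not for a sorted type. The fibroblast-like gate held 50, 31, 48 and 2 cells, the endothelial-like gate 7, 69, 7 and 1, the pituicyte-like gate (glia of the posterior lobe) 25, 9, 6 and 1, and the stem-like gate 420, 483, 573 and 13. Lactotrophs, which make prolactin, numbered 2148, 1144, 2363 and 59. Melanotrophs, the Pomc cells of the intermediate lobe, made up 8.53%, 22.1%, 8.50% and 83.6% of the kept cells. Fibroblast-like cells carried 7 of 8 fibroblast markers in each of the first 3 libraries, led by Dcn at 5530, 7587 and 7186 CPM, while Dpt was at 0. Of 10 mural markers (pericytes and smooth muscle) they carried 7, 7 and 4, summed to 393, 909 and 251 CPM, with Rgs5 at 1, 1 and 0 UMIs and Myh11 and Higd1b at 0 in all 3. In WT at 40 weeks, 18 of the 48 fibroblast-like cells stood on only 3 markers, and the median cell of the gate held 7.58% Prl UMIs, against 0.998% and 2.03% at 14 weeks. Free RNA was high in that library throughout: its macrophages, which do not make prolactin, held a median of 7.45% Prl, against 1.25%, 1.83% and 0.106% in the others.

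Collagen genes together gave 28682, 15700, 7860 and 3149 UMIs, or 312, 223, 158 and 52.2 CPM of the kept cells. All 44 members had a UMI in every library, and 40, 40, 31 and 27 of them had at least 20. A single gene made up much of the total: Col1a2 was 59.7%, 38.1%, 52.9% and 8.42% of the collagen UMIs. In p25OE at 40 weeks the leading member was Col9a2 instead, with 25.1% of the collagen UMIs, against 0.812%, 4.36% and 1.21% in the other libraries. The 4 members with fewer than 20 UMIs in every library were Col6a5, Col6a6, Col10a1 and Col28a1, with 1 to 18 UMIs each.

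Each of the other 40 members was placed by the class with its highest mean CPM over the libraries with at least 10 cells of that class. Fibroblast-like cells were highest for 22 members, pituicyte-like cells for 9, endothelial-like cells for 3, and stem-like cells and gonadotrophs for 2 each. Melanotrophs were highest for Col19a1 and thyrotrophs for Col24a1, and no member was highest in lactotrophs, somatotrophs, corticotrophs or macrophages. The pituicyte-like and endothelial-like levels rest on 1 library each, of 25 cells (WT at 14 weeks) and 69 cells (p25OE at 14 weeks). Means of classes thus come from different libraries, and the order of 2 classes can differ within one. Within p25OE at 14 weeks Col4a3, placed in endothelial-like cells, was at 63.8 CPM (27.5 to 126) in fibroblast-like and 46.7 CPM (27.2 to 74.8) in endothelial-like cells. The order of neighbours was often close: Col4a4 was at 29.3 CPM in both pituicyte-like and fibroblast-like cells, and Col15a1 was at 175 CPM in fibroblast-like and 170.3 CPM in endothelial-like cells. Some placements rest on few UMIs, since the minimum of 20 was over a whole library. Fibroblast-like cells of the first 3 libraries held 2, 0 and 0 UMIs of Col6a4 and 0, 1 and 1 of Col20a1. The 25 pituicyte-like cells held 2 of Col7a1. The levels by class are shown as a map.

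**Figure D1:**
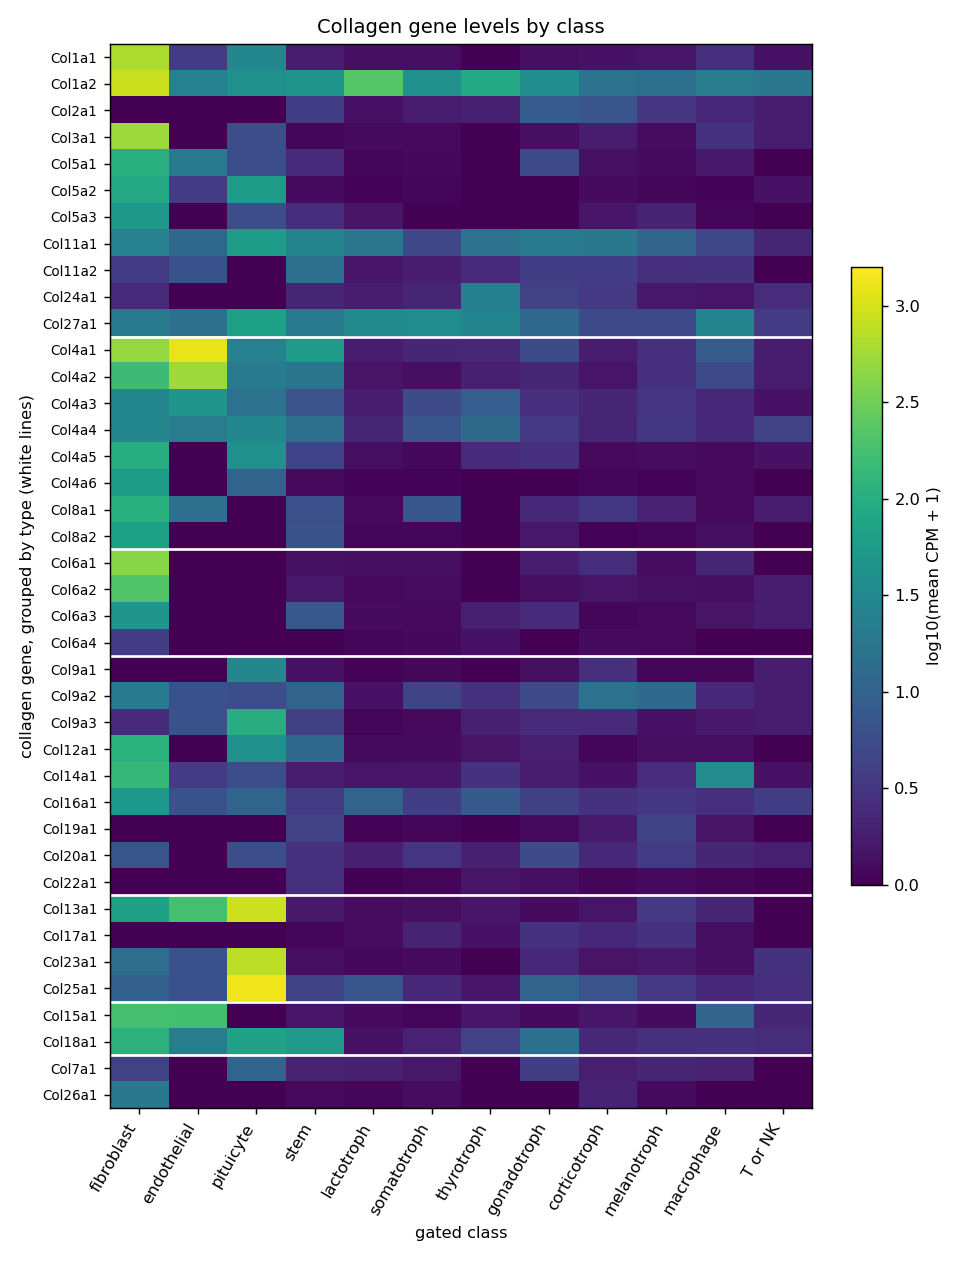
Each row is 1 of the 40 collagen genes with at least 20 UMIs in a library, each column a gated class, and colour is log10 of the mean CPM plus 1 over libraries with at least 10 cells of the class; white lines part the collagen types. Fibroblast-like cells are the highest column for 22 members, though dim for some, such as Col6a4 and Col20a1 at 2.85 and 5.76 CPM. Pituicyte-like cells are bright for the membrane-spanning Col13a1, Col23a1 and Col25a1, and Col1a2 is the row that stays bright across hormone classes.

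The kind of collagen also differed between classes. In WT at 14 weeks fibroblast-like cells held 3130 CPM of fibrillar, 1191 CPM of basement membrane and network, and 965 CPM of beaded filament members. Endothelial-like cells of p25OE at 14 weeks held 1870 CPM of basement membrane and network members and 79.7 CPM of fibrillar ones. Pituicyte-like cells held 2985 CPM of membrane-spanning members and 259 CPM of fibrillar ones. Lactotrophs held 433 CPM of fibrillar members, mostly Col1a2, and 3.80 CPM of basement membrane and network members. Stem-like cells were between these, with 161 and 132 CPM.

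**Figure D2:**
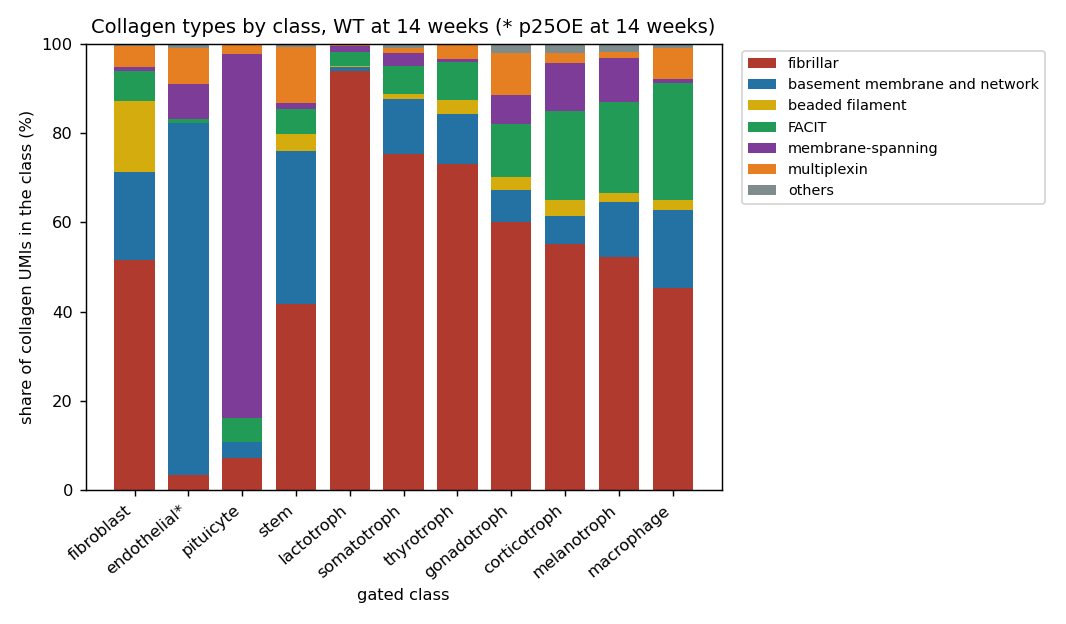
Bars split the collagen UMIs of each class by collagen type (percent, axis from 0 to 100), in WT at 14 weeks, or in p25OE at 14 weeks for the endothelial-like class. Fibrillar members fill most of the lactotroph bar, basement membrane members the endothelial-like bar and membrane-spanning members the pituicyte-like bar.

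Among the fibrillar members, Col1a1, which codes for the chain that makes up most of type I collagen, was at 2.53, 2.58, 1.38 and 0.911 CPM over all kept cells. In fibroblast-like cells it reached 734 CPM (629 to 853) and 932 CPM (771 to 1117) at 14 weeks and 223 CPM (143 to 332) in WT at 40 weeks. These cells held 73.8, 64.3, 34.8 and 78.2% of all Col1a1 UMIs, the last from 2 cells. No other class passed 29.3 CPM on average.

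Col3a1, a collagen of the fine reticular fibres that accompany type I, was at 2.47, 1.53, 1.22 and 0.596 CPM over all kept cells and at 807, 589.7 and 223 CPM in fibroblast-like cells of the first 3 libraries. Its next class, the pituicyte-like cells, was at 4.88 CPM, from 1 UMI (0.124 to 27.2). The fibroblast-like mean was 111 times that value, a gap that 1 UMI fixes only loosely. Col5a1, Col5a2 and Col5a3 code for type V, which sets the start and width of type I fibrils. Col5a1 was at 0.685, 1.12, 0.201 and 0.215 CPM over all kept cells, Col5a2 at 0.663, 0.369, 0.261 and 0.0994 CPM, and Col5a3 at 0.653, 1.14, 0.241 and 0.248 CPM. Their fibroblast-like means were 99.9, 85.3 and 49.9 CPM, and Col5a2 was also at 53.6 CPM in pituicyte-like cells. Of the Col5a3 UMIs in p25OE at 14 weeks, 48.8% lay in melanotrophs and 8.75% in fibroblast-like cells.

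Other fibrillar members were spread over hormone and epithelial classes. Col11a1, a chain of the minor fibrillar type XI best known from cartilage, was at 19.2, 17.1, 8.16 and 2.17 CPM over all kept cells. Lactotrophs held 55.9, 31.2, 36.6 and 6.11% of its UMIs, at 26.2, 20.2, 9.69 and 11.4 CPM, and stem-like cells had it at 40.9, 48.1, 18.3 and 0 CPM. Col11a2, its partner chain, was at 2.61, 3.04, 1.18 and 0.911 CPM over all kept cells and was highest in stem-like cells, at 21.9, 27.5, 5.03 and 0 CPM. In stem-like cells there were 0.535 Col11a2 UMIs per Col11a1 UMI in WT at 14 weeks (0.419 to 0.680), and in lactotrophs 0.0345 (0.0237 to 0.0485), so the balance of these chains differed by class beyond counting error.

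Col27a1, a fibrillar chain known from cartilage, was at 27.5, 19.9, 18.1 and 5.05 CPM over all kept cells, the second highest member in each of the 4 libraries. It was at 30.8, 25.1, 17.1 and 59.8 CPM in lactotrophs, 39.8, 32.4, 25 and 44.2 CPM in somatotrophs and 48.9, 36.4, 13.7 and 9.61 CPM in macrophages. Melanotrophs had it at 3.15, 2.90, 6.25 and 3.88 CPM and corticotrophs at 4.59, 2.47, 5.50 and 4.58 CPM, lower than the 3 classes before in each library. Its highest mean, 63.4 CPM, was in the 25 pituicyte-like cells. Col24a1, its close relative, was at 1.29, 1.45, 0.963 and 0.447 CPM over all kept cells. Thyrotrophs, which make thyroid-stimulating hormone, had Col24a1 at 21.3, 32.8 and 14.7 CPM in the first 3 libraries, 7.30 times the mean of the next class. It had 0 UMIs in 25 pituicyte-like and 69 endothelial-like cells, which allow up to 14.6 and 8.24 CPM. Col2a1, the main cartilage collagen, was at 1.82, 2.37, 1.10 and 1.06 CPM over all kept cells, with 0 UMIs in fibroblast-like cells. Its highest mean was in gonadotrophs, at 7.31, 11.6 and 3.7 CPM in the first 3 libraries. Corticotrophs had it at 8.64, 6.92, 4.12 and 4.58 CPM, the last from 1 UMI.

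Col1a2, the second chain gene of type I collagen, was the most abundant member by count in all libraries but p25OE at 40 weeks, with 17124, 5974, 4155 and 265 UMIs, or 186, 84.8, 83.3 and 4.39 CPM. It was highest in fibroblast-like cells, at 1187 CPM (1052 to 1335), 980.2 CPM (815 to 1170) and 483 CPM (361 to 634) in the first 3 libraries. Yet those few cells held only 1.62, 2.06, 1.25 and 10.2% of the Col1a2 UMIs, the last from 2 cells, and lactotrophs held 82.0, 74.5, 60.9 and 28.3%. That lactotrophs carry this gene was known when it was chosen, so what follows describes the pattern.

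Lactotrophs had Col1a2 at 373 CPM (367 to 379.6), 239.5 CPM (232 to 247), 165 CPM (158 to 171) and 107 CPM (84.0 to 134). The 4 intervals do not overlap, and both p25OE libraries were below the WT library of their age. Next among the hormone classes came thyrotrophs at 78.4, 119.8 and 58.9 CPM, somatotrophs at 65.8, 36.6, 42.8 and 10.2 CPM and gonadotrophs at 54.8, 9.51 and 44.8 CPM. Stem-like cells were at 62.9, 28.8, 53.0 and 33.9 CPM, and corticotrophs and melanotrophs at 18.9, 8.64, 27.9 and 4.58 and 15.2, 7.85, 28.1 and 2.26 CPM. Macrophages, taken as the level of free RNA in a droplet, were at 16.9, 16.5, 49.8 and 1.20 CPM. In WT at 40 weeks the gonadotroph, somatotroph, corticotroph and melanotroph levels were all below the macrophage level, and at 14 weeks the corticotroph and melanotroph levels were below it or within its interval. Macrophages also held fewer UMIs per cell, and the part of depth in this order was not tested.

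The lactotroph signal came without the partner chain. Col1a1 had 8, 8, 10 and 0 UMIs in the same lactotrophs that held 14050, 4449, 2530 and 75 UMIs of Col1a2. Expressed as Col1a1 UMIs per Col1a2 UMI, lactotrophs were at 0.000569 (0.000246 to 0.00112) in WT at 14 weeks and fibroblast-like cells at 0.619 (0.509 to 0.751). In p25OE at 14 weeks the values were 0.00180 (0.000776 to 0.00355) and 0.951 (0.732 to 1.24), and in WT at 40 weeks 0.00395 (0.00189 to 0.00728) and 0.462 (0.272 to 0.762). In p25OE at 40 weeks 0 Col1a1 UMIs beside 75 of Col1a2 allow up to 0.0504. The 8 fibroblast markers summed to 3.14, 9.21, 35.9 and 5.70 CPM in lactotrophs, against 12107, 14974 and 14884 CPM in fibroblast-like cells. Leaving out lactotrophs with 2 or more fibroblast or mural markers gave Col1a2 at 374, 239.9, 164 and 107 CPM.

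**Figure D3:**
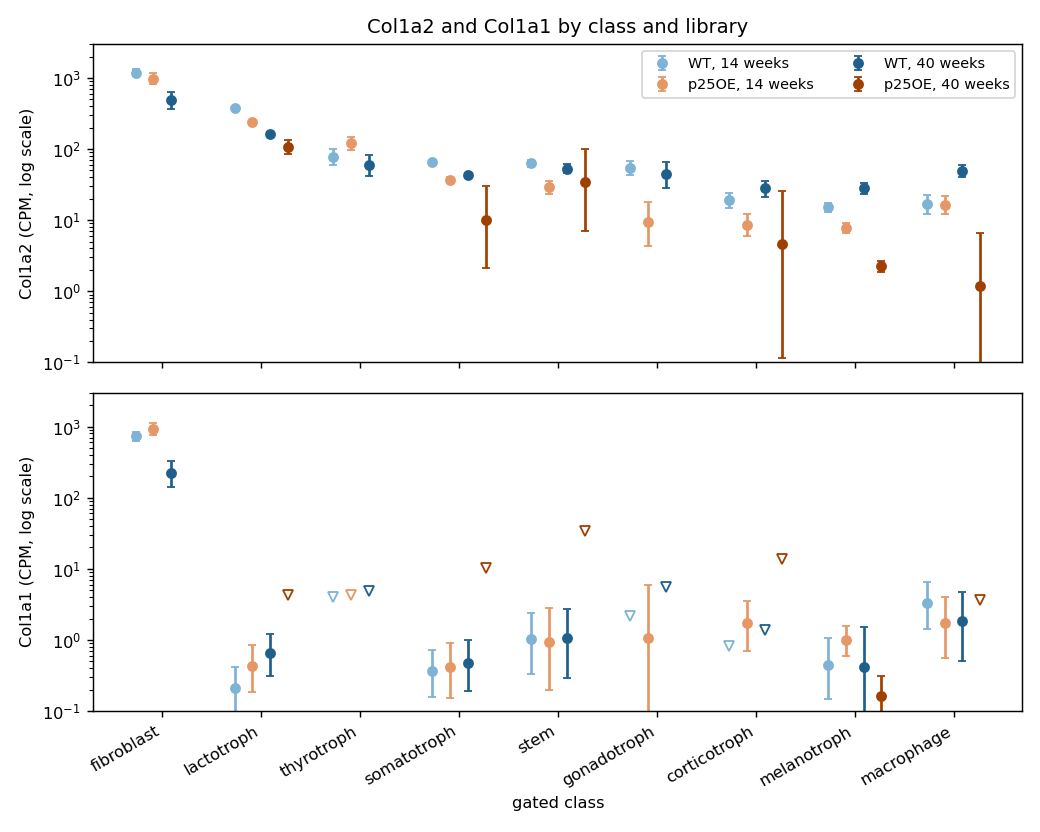
Points give CPM of Col1a2 (top) and Col1a1 (bottom) on a log axis by class, coloured by library, with exact 95% Poisson intervals; open triangles are the level that 0 UMIs allows (3 counts), and libraries with fewer than 10 cells of a class are left out. Both genes are high in fibroblast-like cells, while in lactotrophs only Col1a2 is above 100 CPM and Col1a1 stays below 1 CPM where it was seen.

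Within lactotrophs the gene was widespread. In WT at 14 weeks 1839 of 2148 lactotrophs had a Col1a2 UMI, with a median of 5 per cell, and the richest cell, with 80 UMIs, held 0.569% of the total. The other libraries had 796 of 1144, 1112 of 2363 and 35 of 59 lactotrophs with a UMI. When each cell was thinned to 1000 UMIs, 27.6% (25.7% to 29.6%), 19.2% (17.0% to 21.6%), 13.0% (11.7% to 14.5%) and 15.3% (7.22% to 27.0%) of lactotrophs had one, against 1.52%, 2.32%, 5.58% and 0.521% of macrophages. Shallower cells were left out, 1, 0, 0 and 0 lactotrophs and 14, 16, 3 and 9 macrophages. Before thinning, median depths were 17572, 12684, 5321 and 10541 UMIs in lactotrophs and 3494, 3048, 2129 and 3229 in macrophages.

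Prolactin is the lactotroph product, and Prl UMIs were found in macrophages too, so Col1a2 was also set against Prl. Lactotrophs had 7.91 (7.78 to 8.04), 4.82 (4.68 to 4.97), 4.64 (4.46 to 4.82) and 2.32 (1.82 to 2.90) Col1a2 UMIs per 10000 Prl UMIs. Macrophages had 8.04 (5.77 to 10.9), 8.16 (6.02 to 10.8), 6.48 (5.32 to 7.81) and 7.43 (0.188 to 41.4, from 1 UMI). In WT at 14 weeks the macrophage interval covers the lactotroph value, and in the other 3 libraries the macrophage value was above it. Somatotrophs, at 45.8, 35.9 and 11.6 in the first 3 libraries, and stem-like cells, at 37.6, 12.5 and 11.5, had more Col1a2 for their Prl than lactotrophs of the same library had. Melanotrophs had 18.4 (15.7 to 21.4), 11.3 (9.52 to 13.3), 8.15 (6.83 to 9.64) and 18.8 (15.7 to 22.4) per 10000 Prl UMIs. Their interval lies above that of macrophages in WT at 14 weeks and overlaps it in the other 3 libraries. Corticotrophs had 16.4 (12.8 to 20.7), 7.97 (5.55 to 11.1) and 6.92 (5.30 to 8.89) in the first 3 libraries, above the macrophage interval in WT at 14 weeks and overlapping it in the other two. Among lactotrophs, Col1a2 CPM, taken over the UMIs outside the hormone genes, differed with the Prl share of the cell. In WT at 14 weeks it was 448 in cells with 15% to 30% Prl, 686 at 30% to 45%, 839 at 45% to 60% and 783 above. In p25OE at 14 weeks the values were 333, 441, 549.6 and 530.1, and in WT at 40 weeks 263, 285, 276 and 394, the last from 38 cells. Median depth also differed across these bands, and in WT at 14 weeks was 10246, 18255, 21490.5 and 10281 UMIs. The part of depth was not tested.

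**Figure D4:**
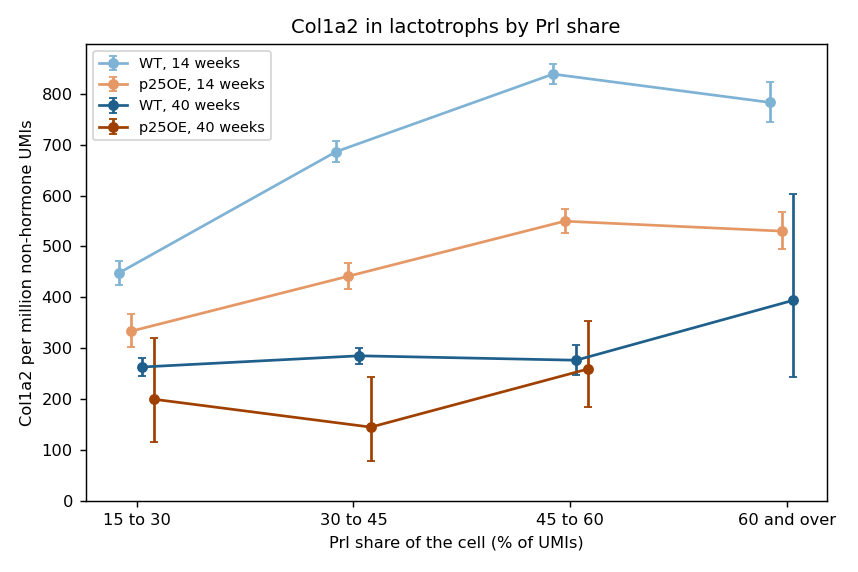
Col1a2 CPM over the UMIs outside the hormone genes (axis from 0) in lactotrophs by Prl share of the cell, 1 line per library, bars are exact 95% Poisson intervals; p25OE at 40 weeks has too few cells in the last band. At 14 weeks both lines climb from the lowest band to 45% to 60%, with WT above p25OE, and the WT line at 40 weeks is level between 263 and 285 over the first 3 bands.

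Among basement membrane members, Col4a1 had the most UMIs in every library but p25OE at 40 weeks, where Col4a4 led. Col4a4 was also above Col4a2 in every library. Col4a1 was at 7.5, 14.8, 2.95 and 0.580 CPM and Col4a2 at 2.79, 6.26, 1.24 and 0.696 CPM over all kept cells. The 69 endothelial-like cells of p25OE at 14 weeks had Col4a1 at 1255 CPM (1143 to 1376) and Col4a2 at 530.1 CPM (458 to 610.4), and in that library they held 43.7% of all Col4a1. In the WT library of that age, with 7 such cells, they held 3.77%, and stem-like cells held 48.6%. Stem-like cells had Col4a1 at 68.5, 87.6, 18.8 and 45.2 CPM and Col4a2 at 18.4, 30.4, 6.36 and 11.3 CPM. Fibroblast-like cells had Col4a1 at 478, 924 and 65.1 CPM and Col4a2 at 196, 263 and 0 CPM in the first 3 libraries.

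The balance of the pair that shares its start differed between classes. In p25OE at 14 weeks there were 2.37 Col4a1 UMIs per Col4a2 UMI in endothelial-like cells (2.0 to 2.82), 2.885 in stem-like cells (2.28 to 3.68) and 3.515 in fibroblast-like cells (2.37 to 5.34). In WT at 14 weeks the values were 1.37 from 7 endothelial-like cells (0.729 to 2.62), 3.72 in stem-like cells (2.94 to 4.75) and 2.44 in fibroblast-like cells (1.71 to 3.51). At 14 weeks melanotrophs were below the stem-like and fibroblast-like cells of their library. They were at 0.821 in WT at 14 weeks (0.452 to 1.48), 0.906 in p25OE at 14 weeks (0.60 to 1.36) and 0.639 in p25OE at 40 weeks (0.362 to 1.11). In macrophages Col4a1 was at 18.9, 8.25, 1.37 and 1.20 CPM, and at 14 weeks its UMIs lay in 7 of 608 WT and 15 of 791 p25OE cells.

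Col4a3, Col4a4 and Col4a5 code for the chains of the basement membrane network that is faulty in Alport kidney disease. Col4a3 was at 2.58, 4.64, 1.69 and 2.19 CPM over all kept cells and Col4a4 at 4.56, 6.39, 2.47 and 2.65 CPM. Somatotrophs, which make growth hormone, held 41.1, 30.4 and 42.3% of the Col4a4 UMIs in the first 3 libraries, at 7.82, 9.38, 3.57 and 3.40 CPM over all 4 libraries, and had Col4a3 at 4.91, 8.08, 1.44 and 3.40 CPM. Stem-like cells had Col4a4 at 21.1, 25.9, 7.42 and 0 CPM, with 0.350 Col4a3 UMIs per Col4a4 UMI in WT at 14 weeks (0.232 to 0.515) against 0.628 in somatotrophs (0.489 to 0.803). Col4a5 was at 1.28, 1.05, 0.321 and 0.232 CPM and Col4a6, which also joins Col4a5, at 0.381, 0.284, 0.161 and 0.0331 CPM over all kept cells, and both were highest in fibroblast-like cells, at means of 98 and 58.5 CPM. Col8a1 and Col8a2, short chains of the network of corneal and vessel membranes, were at 2.10, 1.86, 2.55 and 0.696 CPM and 0.859, 0.483, 0.923 and 0.133 CPM over all kept cells, with fibroblast-like means of 107 and 64.3 CPM. Somatotrophs had Col8a1 at 3.50, 5.00, 5.77 and 10.2 CPM.

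Among the beaded filament members, fibroblast-like cells held 72.4, 58.9, 32 and 60% of the Col6a1 UMIs. They held 69.8, 50.9, 26.1 and 38.1% of the Col6a2 UMIs, the last value of each from 2 cells. Col6a1 was at 2.01, 1.52, 1.5 and 0.331 CPM over all kept cells and at 572, 502 and 223 CPM in fibroblast-like cells. Col6a2, its partner, was at 1.15, 0.753, 0.923 and 0.348 CPM over all kept cells and at 316, 215 and 112 CPM there. Their means in fibroblast-like cells were 267 and 266 times those of the next class, the widest such gaps among all 40 members. Classes at 0 were passed over: 0 UMIs in 69 endothelial-like and 25 pituicyte-like cells allow up to 8.24 and 14.6 CPM. For Col6a2 the next class was T or NK cells, with 1 UMI in 101 cells of p25OE at 14 weeks. These gaps are thus known only loosely and may be far smaller. Col6a3, the third chain of the filament, was at 1.37, 0.767, 0.642 and 0.298 CPM over all kept cells and was shared with stem-like cells, which held 51.6, 53.7 and 43.8% of its UMIs in the first 3 libraries. Col6a4, an alternative to that chain, was at 0.25, 0.284, 0.0401 and 0.0166 CPM.

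Among the FACIT members, Col9a2 is a chain of type IX, which coats cartilage fibrils together with Col9a1 and Col9a3. Over all kept cells Col9a2 was at 2.53, 9.73, 1.91 and 13.1 CPM. Corticotrophs had it at 16.2, 29.6, 10.1 and 4.58 CPM and melanotroph cells at 4.76, 23.1, 3.75 and 13.4 CPM, so that in WT the corticotroph level was above the melanotroph level at both ages. The highest mean, 19.1 CPM, was in fibroblast-like cells, which had 5, 1 and 3 UMIs. The partner chains were at lower levels: over all kept cells Col9a1 was at 0.337, 0.483, 0.341 and 0.116 CPM and Col9a3 at 0.685, 1.18, 0.441 and 0.232 CPM. In p25OE melanotrophs there were 0.0145 Col9a1 UMIs (0.00529 to 0.0318) and 0.0290 Col9a3 UMIs (0.0149 to 0.0512) per Col9a2 UMI at 14 weeks. In WT melanotrophs of that age the values were 0.0189 (0.000469 to 0.110) and 0.0566 (0.0113 to 0.175), with intervals that overlap those of p25OE. Pituicyte-like cells showed the other order, with 20 UMIs of Col9a3 and 1 of Col9a2 in WT at 14 weeks.

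Col14a1, a FACIT member of type I fibrils, was at 2.58, 3.66, 1.58 and 1.13 CPM over all kept cells. Fibroblast-like cells had the highest mean, 134 CPM, but macrophages held 44.3, 55.8, 48.1 and 29.4% of its UMIs, at 43.2 CPM (35.3 to 52.3), 49.5 CPM (41.7 to 58.2), 17.4 CPM (12.3 to 23.8) and 24.0 CPM (14.7 to 37.1). In macrophages Col14a1 was above Col1a2 in 3 of the 4 libraries, all but WT at 40 weeks. Col12a1, its relative, was at 1.22, 1.08, 0.642 and 0.464 CPM and Col16a1, which is found on fibrils and near basement membranes, at 7.5, 5.44, 6.12 and 1.32 CPM over all kept cells. Lactotrophs held 63.6, 52.0 and 45.9% of the Col16a1 UMIs in the first 3 libraries, at 11.7, 10.7, 9.11 and 5.70 CPM over all 4 libraries.

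Col19a1 was at 0.402, 1.53, 0.802 and 0.480 CPM over all kept cells, and melanotrophs held 64.9, 80.6, 77.5 and 86.2% of its UMIs, at 2.16, 4.85, 6.46 and 0.449 CPM. Its next class, stem-like cells, was at a mean of 3.12 against 3.48 CPM, which rests on few UMIs. Col20a1 was at 2.26, 2.80, 0.762 and 2.05 CPM over all kept cells and at 4.22, 3.40, 1.25 and 2.03 CPM in melanotrophs. Col22a1, known from tissue junctions such as muscle ends, was at 0.239, 0.440, 0.0201 and 0.116 CPM.

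The membrane-spanning members stood out in pituicyte-like cells. In the 25 such cells of WT at 14 weeks Col25a1, which was first found in amyloid plaques, was at 1336 CPM (1183 to 1504), and at 791.5 CPM under the stricter barcode filter. Col13a1, a collagen of the neuromuscular junction, was at 897 CPM (772 to 1037), Col23a1 at 751 CPM (637 to 879) and Col9a3 at 97.5 CPM (59.6 to 151). All 25 cells had a Col25a1 UMI, and 20 of them had Col13a1 and 20 Col23a1. One cell held 25.3% of the Col23a1 UMIs, and the top 3 cells held 48.1%. Pituicyte-like cells of the other libraries, 9, 6 and 1 in number, held 37, 20 and 5 UMIs of Col25a1.

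Lactotrophs held 28.9, 38.5, 44.9 and 5.26% of the Col25a1 UMIs, at 5.50, 8.24, 8.39 and 2.85 CPM. Over all kept cells Col25a1 was at 7.80, 5.64, 5.76 and 0.630 CPM, Col13a1 at 2.73, 2.92, 1.60 and 2.0 CPM and Col23a1 at 2.46, 0.795, 0.562 and 0.265 CPM. Col13a1 was also at 178 CPM (138 to 228) in endothelial-like cells of p25OE at 14 weeks. Col17a1, the collagen of hemidesmosomes in skin, was at 1.15, 1.15, 0.562 and 1.79 CPM over all kept cells, with gonadotroph and melanotroph means of 1.98 and 1.93 CPM.

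Of the multiplexins, Col18a1, the source of endostatin, was at 4.56, 6.89, 3.17 and 1.19 CPM over all kept cells. Stem-like cells held 56.8, 56.3, 53.2 and 6.94% of its UMIs, at 48.6 CPM (42.6 to 55.2), 86.4 CPM (76.4 to 97.2), 22.2 CPM (17.8 to 27.5) and 56.5 CPM (18.4 to 132), the last from 13 cells. Gonadotrophs had it at 16.8, 6.34 and 18.7 CPM in the first 3 libraries. The annotation has Slc19a1 overlap Col18a1 on the other strand, as Tcfl5 does for Col9a3 and Nt5dc1 for Col10a1, and the part of such overlap in the counts was not tested. Col15a1, its relative in vessel and muscle membranes, was at 1.15, 2.56, 0.521 and 0.447 CPM over all kept cells, at 196, 319 and 9.30 CPM in fibroblast-like cells and at 10.3, 13.1, 3.2 and 13.2 CPM in macrophages. Col7a1, the collagen of anchoring fibrils, was at 0.914, 1.05, 0.762 and 2.02 CPM, and Col26a1, a secreted member, at 0.326, 0.483, 0.301 and 0.232 CPM.

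The comparison of p25OE with WT was made first over all kept cells. A ratio below is taken after median-of-ratios scaling over genes with at least 20 UMIs in each library used, so it is relative to those genes. A member counts as higher or lower when it differs by at least 1.5-fold. Of the 44 members, which all had at least 20 UMIs over both libraries at 14 weeks, 7 were higher and 14 lower, where 14.7% of all 18427 genes were higher and 8.94% lower. At 40 weeks 36 members had enough UMIs and 4 were higher and 27 lower, against 23.1% and 23.7% of 17194 genes. Plain CPM without that scaling gave 12 higher and 8 lower at 14 weeks, where 24.9% of all genes were higher and 4.08% lower. At that age the stricter barcode filter gave 9 lower, and leaving out doublet-like cells gave 12 higher. The median member was at -0.10 on the log2 scale at 14 weeks and at -1.32 at 40 weeks, and the median gene at -0.01 and 0.01. These sums mix the level in a cell with the share of each class, which cannot be told apart in them: lactotrophs were 32.65%, 14.9%, 29.8% and 0.764% of the kept cells and fibroblast-like cells 0.760%, 0.404%, 0.606% and 0.0259%.

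At 14 weeks the highest ratio was that of Col9a2, 3.17-fold higher (2.73 to 3.7) in p25OE, followed by Col19a1, 3.15-fold higher (2.15 to 4.71). Col4a2 was 1.86-fold higher (1.59 to 2.18), Col15a1 1.83-fold higher (1.43 to 2.35) and Col4a1 1.63-fold higher (1.48 to 1.8). Col4a3, 1.49-fold higher (1.26 to 1.77), was just below the threshold. Of the Col4a1 UMIs, the endothelial-like gate held 26 in WT, from 7 cells, and 457 in p25OE, from 69 cells. The lowest ratio was that of Col23a1, 3.74-fold lower (2.78 to 5.1), which was highest in pituicyte-like cells, 25 and 9 in number. Col1a2 was 2.66-fold lower (2.58 to 2.73), Col5a2 2.17-fold lower (1.35 to 3.58) and Col6a3 2.16-fold lower (1.56 to 3.03). Col8a2 was 2.15-fold lower (1.42 to 3.32) and Col3a1 1.95-fold lower (1.54 to 2.47).

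At 40 weeks Col9a2 was again the highest, at 4.75-fold higher (3.83 to 5.94). Col17a1 was 2.2-fold higher (1.44 to 3.47), Col20a1 1.86-fold higher (1.29 to 2.76) and Col7a1 1.83-fold higher (1.27 to 2.72). In p25OE at 40 weeks melanotrophs held 94.9%, 97.2%, 91.1% and 88.5% of the UMIs of these 4 members, and were the class that made up most of that library. Col1a2 was 27.4-fold lower (24.2 to 31.2), Col25a1 13.2-fold lower (9.4 to 19.1) and Col8a2 10.1-fold lower (4.7 to 24.7). Col4a1 was 7.35-fold lower (5.05 to 11), Col16a1 6.67-fold lower (5.2 to 8.64) and Col6a1 6.56-fold lower (3.96 to 11.3).

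Within melanotrophs, 561, 1694, 674 and 6462 cells in the 4 libraries, values are per UMI of the class, though RNA of other classes in these barcodes still enters. At 14 weeks 23 members had at least 20 UMIs, of which 9 were higher and 5 lower in p25OE, against 17.9% and 9.60% of 14681 genes. Col9a2 had 53 UMIs in WT and 414 in p25OE and was 4.25-fold higher (3.18 to 5.76). In WT 51 of 561 melanotrophs had a Col9a2 UMI and in p25OE 328 of 1694, with at most 2 and 4 UMIs in a cell, so no few cells carried the difference. At 40 weeks the counts were 18 and 749, and Col9a2 was 2.84-fold higher (1.78 to 4.82). The 2 ages gave the same direction, in libraries that share no sample.

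The other members that were higher in p25OE melanotrophs at 14 weeks belonged to several collagen types. Col18a1 was 3.26-fold higher (1.71 to 6.85), Col4a3 3.01-fold higher (1.57 to 6.35) and Col4a4 2.35-fold higher (1.41 to 4.09). Col5a3 was 2.36-fold higher (1.12 to 5.53) and Col19a1 1.97-fold higher (1.24 to 3.24). Of the rest, Col1a1 was 1.96-fold higher (0.7 to 6.74), Col13a1 1.81-fold higher (1.1 to 3.11) and Col25a1 1.66-fold higher (0.998 to 2.86). The main basement membrane chains were below the threshold, with Col4a1 1.13-fold higher (0.677 to 1.95) and Col4a2 1.03-fold higher (0.639 to 1.69). Lower were Col8a1, 3.18-fold lower (1.44 to 7.39), Col23a1, 2.94-fold lower (1.26 to 7.26), and Col1a2, 2.2-fold lower (1.75 to 2.78). Col17a1 was 1.91-fold lower (1.09 to 3.32) and Col2a1 1.57-fold lower (1.0 to 2.44). Col11a1, 1.29-fold lower (1.05 to 1.58), was below the threshold. In the same melanotrophs the 8 fibroblast markers summed to 1.17 CPM in WT and 20.4 CPM in p25OE, with Dpt at 0 in both and Apod at 0 in WT, and the 10 endothelial markers summed to 9.80 and 33.4 CPM with Cldn5 at 0. Their part in these ratios was not tested.

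At 40 weeks 21 members had enough UMIs in melanotrophs, of which 3 were higher and 14 lower, against 20.5% and 19.0% of 15329 genes, and their median was -1.07 on the log2 scale against 0.02 for all genes. Col4a4 was 5.08-fold higher (1.38 to 42.4), from 149 and 2 UMIs in p25OE and WT. Col19a1 was 18.2-fold lower (10.4 to 32.1), Col1a2 15.7-fold lower (12.2 to 20.2) and Col25a1 9.23-fold lower (4.72 to 17.6). Col16a1 was 3.61-fold lower (1.99 to 6.21), Col11a1 6.66-fold lower (4.67 to 9.39), Col4a1 5.1-fold lower (1.97 to 11.8) and Col24a1 4.4-fold lower (1.45 to 11.4). The median melanotroph held 2.90% Prl UMIs in WT at 40 weeks and 0.100% in p25OE, and the 6 lactotroph markers summed to 34750 and 1339 CPM in these melanotrophs. There were 8.15 and 18.8 Col1a2 UMIs per 10000 Prl UMIs. Lactotroph RNA in melanotroph barcodes thus was lower in the same library as Col1a2, and its part was not tested.

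**Figure D5:**
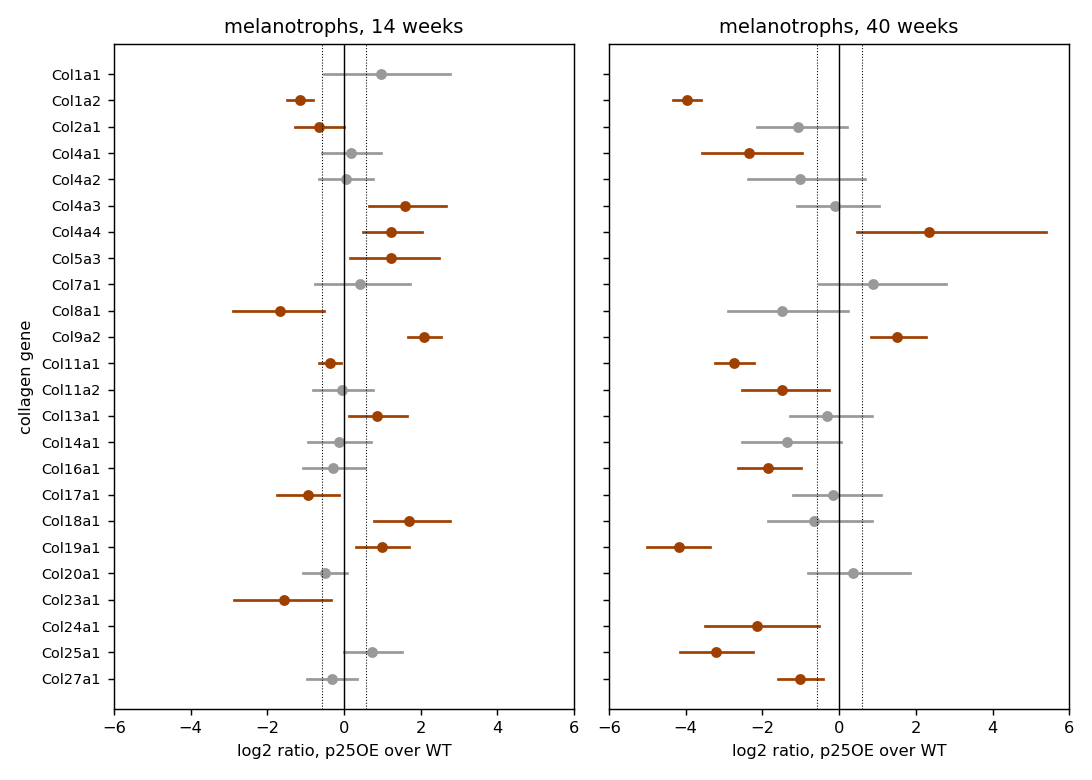
Log2 ratios of p25OE over WT in melanotrophs for members with at least 20 UMIs, at 14 weeks (left) and 40 weeks (right); lines are exact 95% intervals, coloured where they leave out 0, and dotted lines mark 1.5-fold. Col9a2 lies to the right at both ages, at 2.09 and 1.51, and Col1a2 to the left, at -1.14 and -3.97, while Col19a1 lies at 0.98 and -4.18.

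In lactotrophs at 14 weeks 20 members had enough UMIs, of which 5 were higher and 3 lower, against 13.5% and 5.88% of 13946 genes. Col1a2, with 4449 UMIs in p25OE and 14050 in WT, was 1.52-fold lower (1.47 to 1.57) in p25OE. The other members counted as lower were Col6a3, from 4 and 16 UMIs in p25OE and WT, and Col24a1, from 6 and 21, both with intervals that hold 1. Col11a1, 1.26-fold lower (1.12 to 1.43), and Col27a1, 1.19-fold lower (1.07 to 1.33), were below the threshold. Higher were Col4a2, 2.56-fold higher (1.16 to 5.79), Col4a4, 1.76-fold higher (1.01 to 3.03), and Col25a1, 1.54-fold higher (1.24 to 1.91). Leaving out doublet-like cells gave 2 higher, and the stricter barcode filter and the clusters gave 1 lower each. The 8 fibroblast markers summed to 3.14 CPM in WT and 9.21 CPM in p25OE lactotrophs, and their part was not tested. At 40 weeks, with 59 lactotrophs left in p25OE, 5 members had enough UMIs, of which 1 was higher and 2 lower, against 18.8% and 21.3% of 11156 genes. The members counted as lower were Col16a1, from 4 and 140 UMIs in p25OE and WT, and Col25a1, from 2 and 129, both with intervals that hold 1. Col1a2 was 1.47-fold lower (1.17 to 1.88) there, below the threshold but close to its ratio at 14 weeks. Col27a1, with 42 UMIs in p25OE and 263 in WT, was 3.66-fold higher (2.58 to 5.09).

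In stem-like cells at 14 weeks, 420 in WT and 483 in p25OE, 23 members had enough UMIs, of which 9 were higher and 2 lower, against 10.0% and 10.2% of 12872 genes. Col18a1, with 273 UMIs in p25OE and 238 in WT, was 1.79-fold higher (1.5 to 2.14) in p25OE. Col4a2 was 1.67-fold higher (1.24 to 2.25), while Col4a1, 1.29-fold higher (1.1 to 1.52), was below the threshold. Col9a3 was 2.76-fold higher (1.34 to 5.94), Col9a2 2.14-fold higher (1.14 to 4.09) and Col12a1 2.1-fold higher (1.23 to 3.64). Col1a2 went the other way and was 2.17-fold lower (1.71 to 2.77). The 10 endothelial markers summed to 3.68 and 8.54 CPM in these cells in WT and p25OE, and the 8 fibroblast markers to 72.3 and 85.7 CPM, and their part was not tested. Clusters in place of the gate gave 4 higher, and the stricter barcode filter and leaving out doublet-like cells gave 1 lower each.

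In fibroblast-like cells at 14 weeks, 50 and 31 cells, 20 members had enough UMIs, of which 6 were higher and 4 lower, against 21.5% and 19.2% of 3462 genes. Higher were Col13a1, 4.99-fold higher (1.97 to 14.2), Col18a1, 2.64-fold higher (1.44 to 4.91), and Col5a1, 2.35-fold higher (1.25 to 4.43). Col4a1 was 2.13-fold higher (1.63 to 2.78) and Col15a1 1.79-fold higher (1.14 to 2.79). The other member counted as higher was Col4a6, 1.61-fold higher (0.663 to 3.83) from 11 and 14 UMIs in p25OE and WT. Col1a1, 1.4-fold higher (1.1 to 1.78), was below the threshold. Col8a2 was the one named on the lower side, 5.84-fold lower (1.45 to 51.0) from 2 and 24 UMIs in p25OE and WT. The 10 mural markers summed to 393 CPM in WT and 909 CPM in p25OE fibroblast-like cells, led by Pdgfrb at 295 and 629.6 CPM, and their part in the basement membrane ratios was not tested.

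The other classes gave fewer members. In somatotrophs 18 had enough UMIs and 2 were higher and 2 lower, against 9.53% and 7.36% of 14233 genes. Col24a1 was 1.8-fold higher (1.09 to 2.99) and Col4a3 1.6-fold higher (1.22 to 2.1), while Col25a1 was 1.92-fold lower (1.06 to 3.64) and Col1a2 1.84-fold lower (1.67 to 2.04). Col27a1, 1.26-fold lower (1.13 to 1.42), was below the threshold, and clusters gave 5 higher and 1 lower. In corticotrophs, the Pomc cells of the anterior lobe, 9 had enough UMIs and 2 were higher and 2 lower, against 12.4% and 5.76% of 12011 genes. Col9a2, with 120 UMIs in p25OE and 60 in WT, was 1.87-fold higher (1.36 to 2.59) there and Col1a2 2.14-fold lower (1.41 to 3.31), and clusters gave 4 higher and the stricter barcode filter 1. In macrophages 7 had enough UMIs and 0 were higher and 2 lower, against 10.6% and 8.11% of 10933 genes. Col4a2 was 2.4-fold lower (1.07 to 5.75) and Col4a1 2.3-fold lower (1.38 to 3.95) in them, and Col27a1, 1.35-fold lower (1.03 to 1.77), was below the threshold. The Col4a1 ratio rests on 46 UMIs in 7 WT cells and 24 in 15 p25OE cells, the Col4a2 ratio on 20 UMIs in 5 cells and 10 in 7, and without doublet-like cells 0 members were lower. Col1a2 was lower in p25OE at 14 weeks in melanotrophs, lactotrophs, stem-like cells, somatotrophs and corticotrophs, while in macrophages it was 1.03-fold lower (0.66 to 1.59) and in fibroblast-like cells 1.1-fold lower (0.887 to 1.37). These ratios share the same libraries, and the part of free RNA in them was not tested.

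The libraries of WT at 40 and at 14 weeks were compared last, and here age cannot be told apart from library, barcode set and depth. In lactotrophs 20 members had enough UMIs, of which 2 were higher and 8 lower at 40 weeks, against 15.6% and 31.1% of 13935 genes, whose median was -0.22 on the log2 scale. Col11a1 was 3.16-fold lower (2.66 to 3.78) at 40 weeks, Col1a2 2.65-fold lower (2.54 to 2.77) and Col27a1 2.1-fold lower (1.84 to 2.41). Col11a2 was 2.32-fold lower (1.01 to 6.19) and Col20a1 2.23-fold lower (1.18 to 4.56). The other members counted as lower, Col2a1, Col6a3 and Col17a1, had intervals that hold 1. Col16a1, 1.5-fold lower after rounding (1.23 to 1.82), fell just short of the threshold. Col6a1 was 2.79-fold higher (1.08 to 7.51). The other member counted as higher was Col4a2, 1.77-fold higher (0.719 to 4.29), while Col25a1, 1.31-fold higher (1.04 to 1.64), was below the threshold. The fibroblast markers summed to 3.14 CPM in these lactotrophs at 14 weeks and to 35.9 CPM at 40 weeks, and their part in the Col6a1 ratio was not tested. More cells lay near the gate at 40 weeks. Then 356 of 2363 lactotrophs held 15% to 20% Prl, and 652 cells outside the gate held 10% to 15%. At 14 weeks these were 76 of 2148 and 89, and the part of the gate in these ratios was not tested. Plain CPM gave 5 higher, the stricter barcode filter 1 and leaving out doublet-like cells 4.

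In stem-like cells 19 members had enough UMIs, of which 5 were higher and 9 lower at 40 weeks, against 18.0% and 19.0% of 12849 genes. Col11a2 was 3.26-fold lower (1.99 to 5.62), Col4a5 2.8-fold lower (1.14 to 8.24) and Col4a1 2.73-fold lower (2.11 to 3.58). Col6a3 was 2.69-fold lower (1.49 to 5.18), Col4a2 2.17-fold lower (1.37 to 3.56) and Col4a4 2.13-fold lower (1.39 to 3.36). Higher were Col16a1, 2.35-fold higher (1.12 to 5.06), and Col27a1, 1.51-fold higher (1.15 to 1.98). The median stem-like cell held 0.854% Prl at 14 weeks and 4.37% at 40 weeks, and plain CPM gave 1 higher. In fibroblast-like cells 17 members had enough UMIs, of which 0 were higher and 16 lower, against 10.4% and 43.5% of 3060 genes, whose median was -0.46. Col15a1 was 22.9-fold lower (3.92 to 925.0), from 1 UMI at 40 weeks and 46 at 14 weeks, and Col4a1 7.98-fold lower (3.75 to 20.3). Col4a2 had 0 UMIs at 40 weeks and 46 at 14 weeks, which made it at least 5.97-fold lower by its exact interval, where the floor of 3 counts gives 7.64. Col4a5 was 7.23-fold lower (1.83 to 62.5), Col5a1 5.23-fold lower (1.28 to 46.0) and Col5a2 5.15-fold lower (1.61 to 26.3). These cells had a median of 7.58% Prl at 40 weeks and 0.998% at 14 weeks, with 18 of 48 and 4 of 50 cells on only 3 markers.

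Genes that make, trim, bind or break down collagen were counted in the same comparisons, from 5 lists of 69 genes, 2 of which (Dcn and Lum) are also fibroblast markers. The shares of all genes that were higher and lower stand beside the counts: in melanotrophs 17.9% and 9.60% at 14 weeks and 20.5% and 19.0% at 40 weeks, and in lactotrophs 13.5% and 5.88%, then 18.8% and 21.3%. At 14 weeks they were 21.5% and 19.2% in fibroblast-like and 10.0% and 10.2% in stem-like cells. The lists hold few genes in a class, so their counts are given as such and no list is set apart from all genes by them. Of the 20 biosynthesis genes, 18 had at least 20 UMIs in melanotrophs at each age, of which 0 were higher and 3 lower at 14 weeks. At 40 weeks these counts were 2 and 4. In lactotrophs 0 of 19 were higher and 3 lower at 14 weeks, and 7 of 17 were higher and 2 lower at 40 weeks. In fibroblast-like cells 0 of 10 were higher and 0 lower at 14 weeks, and in stem-like cells 1 of 20 higher and 1 lower. Plod2, which hydroxylates lysines of collagen chains, was 2.46-fold lower (1.83 to 3.31) in p25OE melanotrophs at 14 weeks and 4.33-fold lower (3.16 to 5.85) at 40 weeks. Sparc, a matrix protein that binds collagen, was 3.27-fold lower (2.73 to 3.95) in lactotrophs at 14 weeks and 7.87-fold lower (2.68 to 38.3) at 40 weeks, and 14.4-fold lower (10.1 to 20.6) in melanotrophs at 40 weeks. The highest of the list in melanotrophs was P4hb, a subunit of the enzyme that hydroxylates prolines, at 138, 178, 143 and 239 CPM. In fibroblast-like cells of the first 3 libraries Sparc was the highest, at 995, 900.5 and 548.5 CPM, and Serpinh1, the collagen chaperone, was at 611, 733 and 567 CPM.

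Of the 12 genes for trimming and crosslinking, 1 of 7 was higher and 1 lower in melanotrophs at 14 weeks, and 0 of 8 higher and 6 lower at 40 weeks, where 19.0% of all genes were lower. In lactotrophs 4 of 7 were higher and 0 lower at 14 weeks, and 0 of 4 higher and 4 lower at 40 weeks. In fibroblast-like cells 1 of 4 was higher and 1 lower, and in stem-like cells 0 of 6 higher and 1 lower. Lox, which crosslinks collagen, was 2.17-fold lower (1.87 to 2.52) in p25OE melanotrophs at 14 weeks, at 15.1 against 32.7 scaled CPM, and Loxl2, a relative, was 2.56-fold higher (1.11 to 6.86). Adamts2, which cuts the end off procollagen, was 12.1-fold lower (6.24 to 23.2) in melanotrophs at 40 weeks and 5.19-fold lower (1.62 to 26.5) in fibroblast-like cells at 14 weeks.

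Of the 10 receptor genes, 0 of 6 were higher and 1 lower in melanotrophs at 14 weeks, and 0 of 8 higher and 3 lower at 40 weeks. In lactotrophs 0 of 6 were higher and 3 lower at 14 weeks, with 5.88% of all genes lower, and 0 of 3 higher and 1 lower at 40 weeks. In fibroblast-like cells 0 of 3 were higher and 2 lower, and in stem-like cells 2 of 6 higher and 2 lower. Ddr2, a collagen receptor kinase of fibroblasts, was 3.89-fold lower (1.38 to 15.2) in p25OE fibroblast-like cells, from 4 and 32 UMIs. Itgb1, the shared integrin chain, was 1.18-fold higher (1.10 to 1.26) in p25OE melanotrophs and Itga1, its collagen-binding partner, 5.52-fold lower (1.91 to 19.4) at 14 weeks.

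Of the 10 genes for breakdown and its inhibitors, 1 of 6 was higher and 0 lower in melanotrophs at 14 weeks, and 2 of 8 higher and 3 lower at 40 weeks, beside 20.5% and 19.0% of all genes. In lactotrophs 1 of 6 was higher and 0 lower at 14 weeks, and 0 of 4 higher and 1 lower at 40 weeks. In fibroblast-like cells 2 of 5 were higher and 0 lower, and in stem-like cells 0 of 5 either way. Mmp14, a protease at the cell surface, was 2.48-fold higher (1.40 to 4.45) in p25OE fibroblast-like cells. Timp1, an inhibitor of such proteases, was 2.94-fold higher (1.58 to 6.18) in p25OE melanotrophs at 40 weeks, and Timp3 9.42-fold lower (6.02 to 14.6).

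Of the 17 matrix partners, 5 of 12 were higher and 2 lower in melanotrophs at 14 weeks, and 2 of 12 higher and 7 lower at 40 weeks. In lactotrophs 7 of 10 were higher and 0 lower at 14 weeks, when 13.5% of all genes were higher, and 0 of 4 were higher and 2 lower at 40 weeks. The fibroblast markers summed to 3.14 CPM in these WT and 9.21 CPM in these p25OE lactotrophs at 14 weeks, and their part in the matrix partners was not tested. In fibroblast-like cells 8 of 14 were higher and 2 lower, with 21.5% of all genes higher, and in stem-like cells 4 of 10 higher and 1 lower. Lama2, a laminin chain, was 3.99-fold higher (1.20 to 20.8) in p25OE melanotrophs at 14 weeks and 2.64-fold higher (1.01 to 9.82) at 40 weeks. Lamb1, another laminin chain, was 3.0-fold lower (1.97 to 4.62) in melanotrophs and 2.53-fold higher (1.62 to 3.96) in fibroblast-like cells at 14 weeks. In stem-like cells, where Col18a1 and Col4a2 were higher, Agrn was 1.94-fold higher (1.61 to 2.33) and Hspg2 2.26-fold higher (1.19 to 4.37), both heparan sulfate proteoglycans of basement membranes. Dcn, a marker of the fibroblast gate, was 7.21-fold higher (4.62 to 11.6) in p25OE lactotrophs at 14 weeks, at 5.30 against 0.735 scaled CPM.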

How the data were processed

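Single-cell RNA was measured in 4 pituitary libraries, 1 for each genotype and age. The deposited matrices hold whole UMI counts per gene and barcode. Cell Ranger 3.0.2 and mm10 are named in the submitters' processing notes and version 3.0.1 in the file headers. The labels' protocols name the 3' v2 kit for all 4 libraries, but the barcode sets differed between the ages. Pairs of libraries of different age shared 0 to 2 kept barcodes, against 13 and 85 within an age. How the authors chose barcodes is not given in the sources used here. All count columns were used.

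Barcodes with at least 500 genes and at most 20% mitochondrial UMIs were kept. Classes were gated on marker genes: at least 3 markers for fibroblast-like, endothelial-like and pituicyte-like cells, at least 15% Prl or Gh UMIs for lactotrophs and somatotrophs, and Pomc share with lobe markers for melanotrophs and corticotrophs. Cells in more than 1 gate were left out, and no doublet caller was run. UMI counts were summed by class and library. Ratios used median-of-ratios size factors over genes with at least 20 UMIs in each library with at least 20 cells of the class. A call is a ratio of at least 1.5-fold among genes with at least 20 UMIs over both libraries. Intervals are exact 95% Poisson or binomial ones and cover counting error only. A level of 0 allows up to 3 counts.

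Members named are those with at least 20 UMIs in a library and, per comparison, the highest and lowest ratios, up to 6 each, whose interval leaves out 1; other lists are given by their highest and lowest members and highest levels. The members and lists were chosen with earlier results of these data known. Alternatives were plain CPM, a stricter barcode filter (1000 genes, 10% mitochondrial), no minimum count, leaving out doublet-like cells, clusters in place of gates, and hormone genes out of the total. The code was tested on simulated data. Python 3.11.15, numpy 2.4.6, scipy 1.17.1 and pandas 2.3.3 were used.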

Additional observations from a re-analysis of the deposited data

Results flagged for a closer look

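Some members differed in direction between the p25OE to WT ratio at 14 weeks and at 40 weeks, and these differences between ages were not tested. In melanotrophs the log2 ratio of Col19a1 was 0.98 at 14 weeks and -4.18 at 40 weeks. In lactotrophs that of Col27a1 was -0.25 at 14 weeks and 1.87 at 40 weeks, the latter from 59 lactotrophs in p25OE. Over all kept cells Col4a1 was at 0.71 and -2.88, Col4a2 at 0.90 and -1.37, and Col4a4 at 0.21 and -0.43. Col9a3 was at 0.51 and -1.46, Col18a1 at 0.32 and -1.94, and Col19a1 at 1.66 and -1.27. The sums over all kept cells hold 22.1% melanotrophs in p25OE at 14 weeks and 83.6% at 40 weeks.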

How the results depend on the processing

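Over 213 recomputed values, 153 stayed within the bounds set for each, 60 moved and 0 reversed. The balance of higher and lower members over all kept cells at 14 weeks still changed sides under plain CPM, as given below. With 1 library in each group there was no replicate to leave out. No paired analysis was possible because each group has 1 library and the labels give no replicate number. Clusters gave no value for classes that no cluster was named for. Leaving doublet-like cells out of the ratios and taking hormone genes out of the total were chosen after seeing the data. Low counts limit most members: those under 20 UMIs in a class were given no ratio, and the fibroblast-like, endothelial-like and pituicyte-like values rest on few cells.

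Counts below are members at least 1.5-fold higher or lower, p25OE over WT unless ages are named. Where the share of all genes at a setting is not given, a count shows only how far it moved. Such a count says nothing of members against all genes. Plain CPM gave 12 higher and 8 lower over all kept cells at 14 weeks (24.9% and 4.08% of all genes). The scaled ratios gave 7 and 14 there, so the balance of higher and lower members changed sides. Between ages plain CPM gave 5 higher in lactotrophs and 1 in stem-like cells. The stricter barcode filter gave 9 lower over all kept cells, and at 14 weeks 1 lower in lactotrophs, 1 higher in corticotrophs and 1 lower in stem-like cells, and 1 higher in lactotrophs between ages. It put Col4a1 in stem-like cells at 60.7 CPM and Col25a1 in pituicyte-like cells at 791.5 CPM, both in WT at 14 weeks, and Col1a2 in lactotrophs of WT at 40 weeks at 172.6 CPM. With no minimum count, which also puts more of all genes past the threshold (for example 19.7% higher and 17.0% lower in melanotrophs and 18.6% and 13.0% in stem-like cells at 14 weeks), melanotrophs had 15 higher and 12 lower at 14 weeks and 24 lower at 40 weeks, and lactotrophs 12 higher and 6 lower at 14 weeks and 5 higher at 40 weeks. Somatotrophs had 8 higher and 8 lower, corticotrophs 14 and 5, stem-like cells 19 and 5, macrophages 4 and 10, and fibroblast-like cells 8 lower. Between ages it gave 11 higher in lactotrophs, 12 higher and 15 lower in stem-like cells and 1 higher in fibroblast-like cells. Without doublet-like cells 12 were higher over all kept cells at 14 weeks, 2 higher in lactotrophs, 1 lower in stem-like cells and 0 lower in macrophages, 4 were higher in lactotrophs between ages, and Col4a1 in endothelial-like cells was at 1533 CPM. Clusters gave at 14 weeks 1 lower in lactotrophs, 5 higher and 1 lower in somatotrophs, 4 higher in corticotrophs and 4 in stem-like cells. They put Col4a1 in stem-like cells at 103 CPM, Col27a1 in somatotrophs at 37.07 CPM, and Col1a2 in lactotrophs at 384.2, 249.9 and 181.2 CPM in the first 3 libraries. With hormone genes out of the total, Col27a1 in somatotrophs was at 70.56 and Col1a2 in lactotrophs at 720.2, 485.7, 276.1 and 202.4 CPM, still lower in p25OE than in WT at each age. The cause of these shifts was not tested, apart from the construction of each alternative.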
